A study of Mus musculus with 4 samples.

Results

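The 10 genes described here encode enzymes that methylate lysine 9 of histone H3 (H3K9) and proteins that work with heterochromatin protein 1 (HP1): Suv39h1, Suv39h2, Setdb1, Ehmt1, Ehmt2, Trim28, Atrx, Daxx, Lbr and Hells. They were chosen by name, and all of their probes were taken, 12 of the 41174 probes and 10 of the 18327 named genes on the array. HP1 proteins bind nucleosomes that carry methylated H3K9 through their chromodomain and bind partner proteins through their chromoshadow domain. H3K9 methyltransferases write the mark that HP1 reads, and some of them bind HP1 in turn, so that the mark and its reader can spread together. The question the rule poses is whether loss of HP1γ, the product of Cbx3, comes with altered transcript levels of these partners.

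The cells were sorted by flow cytometry for mVenus from genital ridges of mouse embryos at embryonic day 11.5, and all embryos carried the Blimp1-mVenus transgene, a reporter for a regulator of germ cell fate. Embryos of the first group were wild type at Cbx3, and those of the second were HP1γ-/- by a gene-trap allele, bred by crossing HP1γ+/- mice that carried the transgene back to HP1γ+/- mice. RNA from 5 or 6 embryos, with 500 to 3500 sorted cells per embryo, was pooled for each sample, and there were 2 independent pools per genotype. Each pool was hybridised to 1 one-colour array, all 4 on 1 slide. A level below is the log2 signal of a probe minus the 75th percentile of its array, errors are SDs over the 2 pools of a genotype unless called a standard error (SE), and levels of different probes are not compared. A difference is the null mean minus the wild-type mean on that log2 scale, and with so few arrays each has a wide interval.

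Several facts of the arrays bear on all values. The 75th percentile of the signal lay between 125 and 291 intensity units, and 53.3% to 63.3% of spots passed the scanner software's mark for a signal well above background. Over the 22440 probes tested the pooled SD between replicates was 0.28 between wild-type and 0.59 between null pools. The targeted Cbx3 was 104-fold lower in the null pools by probe A_51_P160328 (limma adjusted p = 0.044, and 0.068 to 0.20 when 1 array was left out, whichever it was). By its other probe, A_51_P117162, it was 225-fold lower, which missed the threshold (limma adjusted p = 0.099). The label of primordial germ cells was checked against 12 germ cell genes, of which 8 were tested. Their signals, summed on the linear scale relative to the 75th percentile, were 12.0 and 6.68 for wild type and 29.3 and 5.11 for null. In null replicate 2, 5 of the 8 (Dppa3, Ddx4, Dazl, Tfap2c and Mael) were not well above background, and 5 of 10 tested pluripotency genes were not either. Most of the germ cell sum of 5.11 on that array came from Ifitm3 and Prdm1, which read 1.70 and 0.65, while Dppa3 read -7.04. The 14 endothelial genes were well above background on every array too. In such pools fewer cells of a type cannot be told apart from less RNA per cell.

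No member differed between the genotypes beyond the error of the arrays. Limma, adjusted over all 22440 probes, called 0 of the 11 member probes tested (lowest adjusted p = 0.74), beside a background of 0.00891% of all probes, and 0 of the 11 had an unadjusted p under 0.05 (background 7.51%). By the brighter probe of each gene, 5 of the 10 members had a higher mean in the null pools and 5 a lower one. A higher mean was found for 5696 of the 12130 named genes tested and for 41.7% of all probes. The differences of the members ran from -0.36 for Hells to 0.50 for Trim28. Their median was 0.0022, beside -0.021 over all named genes tested and -0.061 over all tested probes. No member differed 2-fold, as 5.88% of all probes did. The arrays of the genotypes did not overlap for 4 of the 11 probes, 36.4% of them, beside 38.2% of all probes, so that share was near the background. The 95% interval of the difference held 0 for all 11 probes. It lay within 2-fold in either direction for 7 of them, those of Suv39h1, Ehmt1, Ehmt2, Atrx, Daxx and Lbr and the brighter probe of Suv39h2. For Setdb1, Trim28, Hells and the dimmer Suv39h2 probe the arrays do not exclude a change of 2-fold. Those 7 rest on the scaling and on both wild-type arrays: 0 of the 11 intervals lay within 2-fold with scaling to spiked-in control RNA, 0 without wild-type replicate 1 or without wild-type replicate 2, 6 without null replicate 1 and 9 without null replicate 2.

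**Figure D1:**
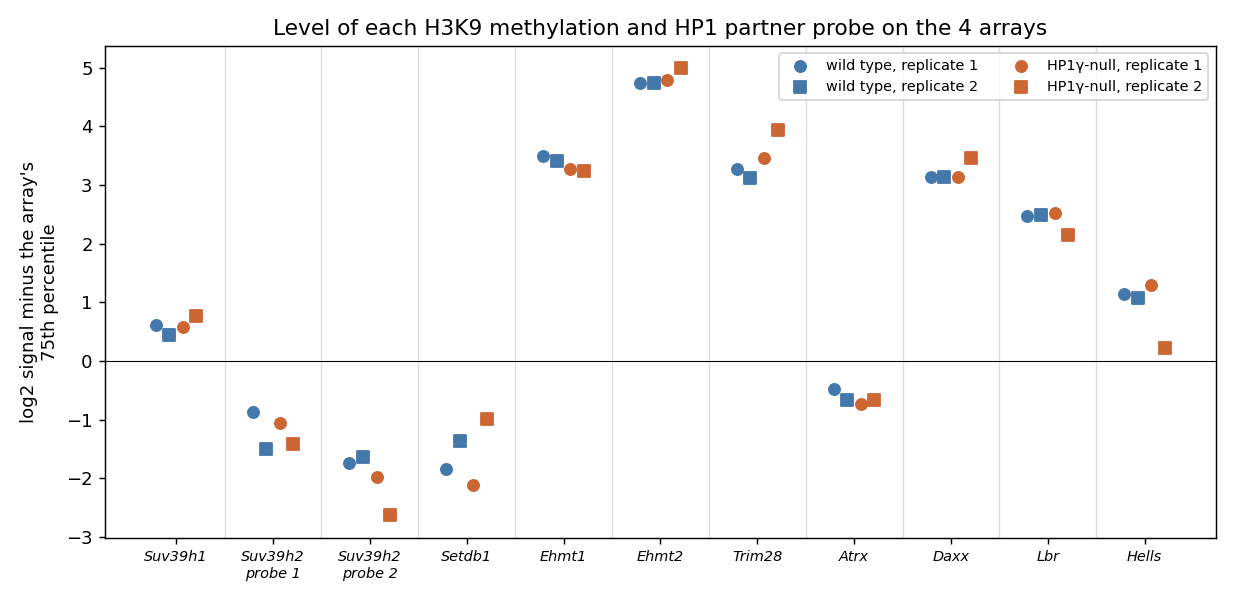
Level of each tested member probe on the 4 arrays (vertical axis, log2 signal minus the array's 75th percentile; blue for wild type, orange for HP1γ-null, circles for replicate 1 and squares for replicate 2; Suv39h2 probe 1 is A_51_P419169 and probe 2 is A_52_P16931). The 4 points of a probe lie within 1.13 log2 units of each other, and those of Setdb1 and Hells spread farthest.

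Among the methyltransferases, Suv39h1 and Suv39h2 are the paralogous enzymes that trimethylate H3K9 at pericentric heterochromatin. Suv39h1 read 0.61 and 0.44 for wild type and 0.59 and 0.76 for null. The null values lay around and just above the wild-type ones, and the groups overlapped. The difference was 0.15 with SE 0.20 (95% interval -0.40 to 0.70, limma adjusted p = 0.93). Suv39h2, known for its strong expression in testis, had 3 probes that did not read alike. By A_51_P419169 it read -0.87 and -1.49 for wild type and -1.05 and -1.42 for null, both null values falling between the wild-type ones. The difference there was -0.052 with SE 0.31 (limma adjusted p = 0.99). By A_52_P16931 it read -1.74 and -1.63 for wild type and -1.98 and -2.63 for null. Both null arrays were below both wild-type arrays on this probe, null replicate 2 by the most. The difference was -0.62 with SE 0.29, or a null level of 0.652 times that of wild type (95% interval -1.40 to 0.16, limma adjusted p = 0.74). Leaving out null replicate 1 or 2 gave -0.95 or -0.29, normexp background correction -0.25 and scaling to spiked-in control RNA -1.17. The third probe, A_52_P187046, lacked the mark for signal above background on all 4 arrays and was not tested. Within an array, the second probe minus the first gave -0.86 and -0.14 for wild type and -0.92 and -1.21 for null. The smallest p that 2 arrays against 2 allow is 0.333, which is what the two-sided exact permutation test gave. All 3 probes carry the same transcript accession, and the exons they cover were not looked at.

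Setdb1 trimethylates H3K9 in euchromatin and at retroelements, where Trim28 brings it, and in primordial germ cells it is known for silencing endogenous retroviruses. It read -1.85 and -1.37 for wild type and -2.11 and -0.99 for null. The null arrays were its lowest and its highest, so the wild-type values lay between them. The difference was 0.056 with SE 0.45 (95% interval -1.15 to 1.27, limma adjusted p = 0.99). Its sign rested on the array: it read 0.62 with null replicate 1 left out, -0.51 with null replicate 2 left out and -0.18 with wild-type replicate 1 left out. Setdb1 had the widest spread of the members, 1.13 log2 units over the 4 arrays. Over those arrays the named genes most like it, by root mean square distance of levels centred on their own mean, were Bscl2, Aup1 and Fbxw5, at distances of 0.036, 0.044 and 0.045. In all, 334 of the 12130 named genes tested lay within 0.2 of it. Setdb1 was dim, at 28.8 to 147 intensity units. Its levels rose in the order of the 75th percentiles of the arrays. These were 125 for null replicate 1, 188 and 219 for wild-type replicates 1 and 2, and 291 for null replicate 2. Bscl2, Aup1 and Fbxw5 had the same order, which follows from their choice by likeness to Setdb1 and is no separate evidence. The part of array signal in this pattern was not tested.

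Ehmt1 (GLP) and Ehmt2 (G9a) form a heterodimer that places mono- and dimethylation on H3K9. Ehmt1 read 3.49 and 3.41 for wild type and 3.28 and 3.24 for null. Both null arrays were below both wild-type arrays by a small margin, with a difference of -0.19 and SE 0.19 (95% interval -0.70 to 0.32, limma adjusted p = 0.89). Ehmt2 read 4.74 on each wild-type array and 4.80 and 4.99 on the null arrays. Both null arrays were above wild type here, with a difference of 0.15 and SE 0.20 (95% interval -0.38 to 0.68, limma adjusted p = 0.93). A single array of either genotype left out kept the sign of both, with values of -0.15 to -0.23 for Ehmt1 and 0.055 to 0.25 for Ehmt2. Within an array, where scaling between arrays has no part, the log2 signal of Ehmt2 minus that of Ehmt1 was 1.25 and 1.33 for wild type and 1.52 and 1.75 for null. This ratio was thus higher on both null arrays, by 0.34 on the log2 scale (two-sided exact permutation p = 0.333, the smallest that 2 against 2 arrays allow). That follows from the opposite directions of the 2 genes given above and is no separate evidence.

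Trim28 (KAP1, Tif1β) is the corepressor that KRAB zinc finger proteins recruit, and it binds both HP1 and Setdb1. It had the largest difference of the 10 genes by their brighter probes and the second largest of the 11 probes. Trim28 read 3.28 and 3.12 for wild type and 3.46 and 3.93 for null. Both null arrays were above both wild-type arrays, null replicate 2 by the most. The difference was 0.50 with SE 0.25, a null level of 1.41 times that of wild type (95% interval -0.18 to 1.17, limma adjusted p = 0.75). Leaving out null replicate 1 gave 0.73 and leaving out null replicate 2 gave 0.26. Of all tested probes, 80.1% had a smaller difference in either direction. Within an array, Trim28 minus Setdb1 was 5.13 and 4.49 for wild type and 5.58 and 4.92 for null. Those 2 pairs of values overlap, and the change of this ratio, 0.44, was no larger than its SD between replicates of 0.45 and 0.46 (two-sided exact permutation p = 0.667).

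Atrx and Daxx form the complex that places the histone variant H3.3 at heterochromatin and telomeres, with Atrx as the remodeller, which also binds HP1, and Daxx as the H3.3 chaperone. Atrx read -0.48 and -0.67 for wild type and -0.74 and -0.66 for null. The groups overlapped, and the difference was -0.12 with SE 0.20 (95% interval -0.66 to 0.42, limma adjusted p = 0.95). Daxx read 3.13 and 3.15 for wild type and 3.14 and 3.47 for null. Null replicate 1 fell between the wild-type arrays, and null replicate 2 alone was higher. The difference was 0.16 with SE 0.22 (limma adjusted p = 0.93) and -0.0020 without null replicate 2. Daxx minus Atrx within an array was 3.61 and 3.82 for wild type and 3.87 and 4.12 for null, a change of 0.28 (two-sided exact permutation p = 0.333). Suv39h1 minus the brighter Suv39h2 probe was 1.48 and 1.93 for wild type and 1.64 and 2.18 for null, a change of 0.20 with overlap (two-sided exact permutation p = 0.667). These 5 within-array comparisons were chosen after the values were seen. With 2 arrays a group none could pass a threshold of 0.05, and their Benjamini-Hochberg adjusted exact p-values were 0.556 or 0.667.

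Lbr, the lamin B receptor of the inner nuclear membrane, tethers heterochromatin to the nuclear envelope and binds HP1. It read 2.48 and 2.49 for wild type and 2.53 and 2.14 for null. The wild-type arrays were nearly equal, and the null arrays lay above and below them. The difference was -0.15 with SE 0.23 (limma adjusted p = 0.94) and 0.048 without null replicate 2. Hells (Lsh), a chromatin remodeller needed for DNA methylation of repeats, read 1.14 and 1.08 for wild type and 1.29 and 0.22 for null. Null replicate 1 had the highest and null replicate 2 the lowest value of the 4. The difference was -0.36 with SE 0.41 (95% interval -1.44 to 0.73, limma adjusted p = 0.91), and it became -0.89 with null replicate 1 left out and 0.18 with null replicate 2 left out.

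**Figure D2:**
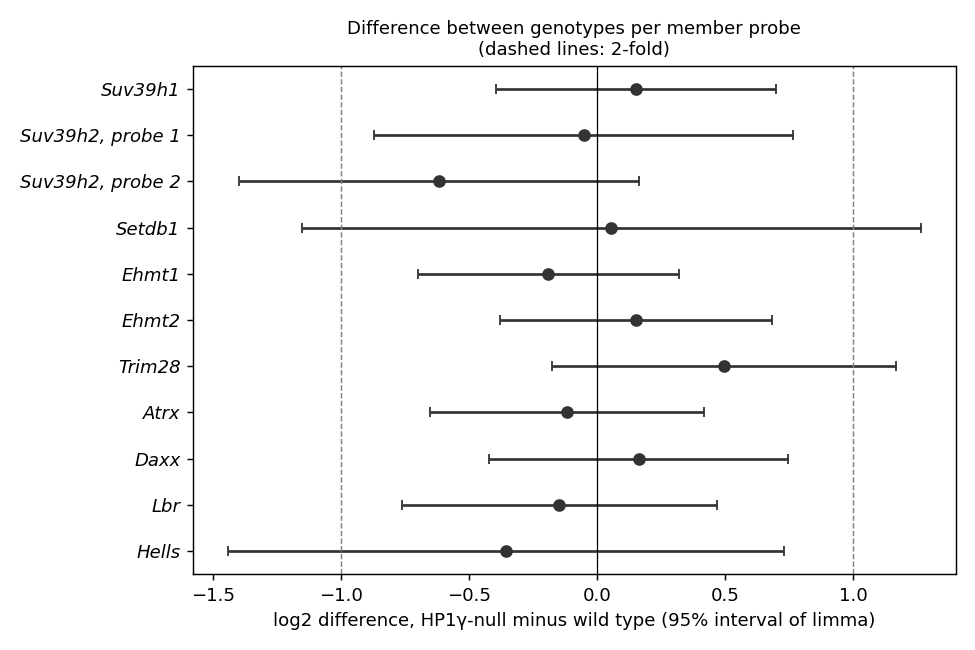
Difference between the genotypes for each tested member probe (horizontal axis, HP1γ-null minus wild type, log2; points are limma estimates from 2 arrays per genotype, bars their 95% intervals, dashed lines mark 2-fold). All 11 bars cross 0, and those of Setdb1, Trim28, Hells and Suv39h2 probe 2 also cross a dashed line.

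The null pools differed from each other more than the wild-type pools did. For 8 of the 11 probes the gap between the null replicates was larger than that between the wild-type replicates. Per gene, the median size of the gap was 0.35 between null pools and 0.12 between wild-type pools. It was 0.38 and 0.15 over all named genes tested, and 0.42 and 0.16 over all tested probes. Null replicate 2 was above null replicate 1 for 6 of the 10 genes, beside 5575 of the 12130 named genes tested and 45.4% of all probes. Setdb1 was 1.13 higher and Hells 1.07 lower in null replicate 2 than in null replicate 1, and they were the only member genes over 1 log2 unit apart there, as 14.3% of all probes were. Hells is a gene of dividing cells, and proliferation genes are given beside it. The 14 tested proliferation genes had median levels of 4.05 and 4.04 for wild type and 3.99 and 3.90 for null, with summed signals of 278 on both wild-type arrays and 314 and 239 on the null arrays. Null replicate 2 was above null replicate 1 for 4 of these 14. Per gene, the median of null replicate 2 minus null replicate 1 was -0.37, beside -0.060 over all named genes tested. The median level of the tested germ cell genes was lowest, and that of the stromal genes highest, in null replicate 2. Ifitm3, at 1.70 there, was not at its lowest, and Postn, at -1.96, was not at its highest. The 11 tested stromal genes summed to 25.9 and 11.0 for wild type and 12.8 and 89.2 for null. The part of cell makeup in the member values was not tested.

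The members varied less over the arrays than these germ cell and stromal genes. The median spread of the 10 genes over the 4 arrays was 0.36 log2 units, beside 0.57 over all named genes tested and 0.63 over all tested probes. The same median was 0.42 for the 54 other pathway genes, 0.37 for proliferation genes, 0.47 for leukocyte genes and 0.99 for endothelial genes. It was 3.60 for stromal genes, 5.63 for germ cell genes and 5.56 for pluripotency genes. The 10 members were well above background on all 4 arrays. Some germ cell and pluripotency genes, and some of all named genes, were not, so those spreads are not of like signal. All 10 members were well above background on the array of null replicate 2, where Dppa3 read -7.04 after 1.60 and -0.26 in wild type and 3.58 in null replicate 1. The 14 endothelial genes had a median difference of -0.63, and 13 of them were lower on both null arrays than on both wild-type arrays (background 23.0%). Limma called 0 of the 14 (background 0.00891%, lowest adjusted p = 0.54), and 5 had an unadjusted p under 0.05 (background 7.51%). Their summed signals were 448 and 491 in wild type and 259 and 334 in the null pools.

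**Figure D3:**
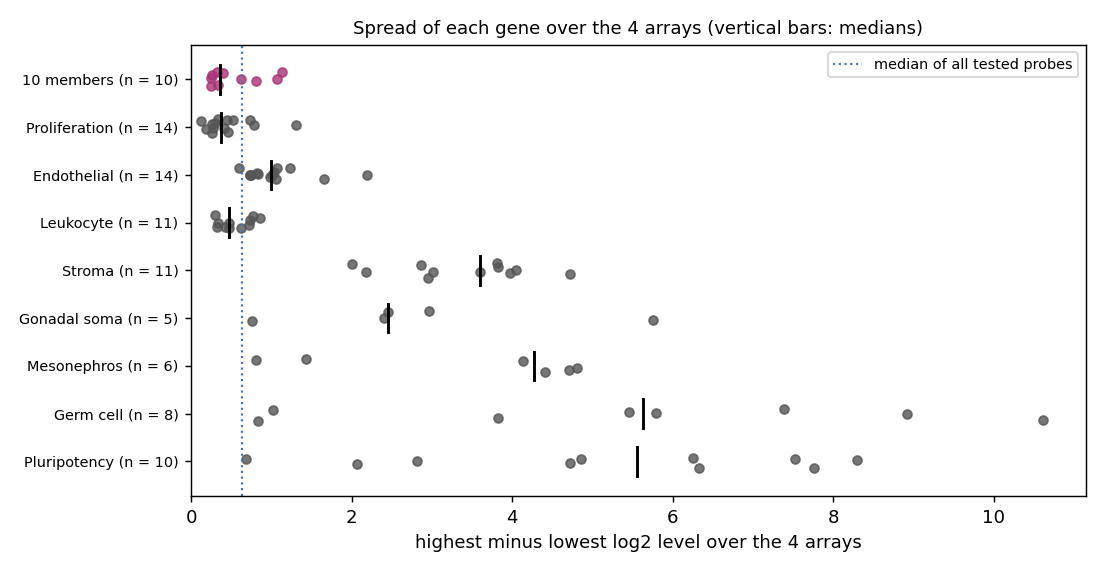
Spread of each tested gene over the 4 arrays (horizontal axis, highest minus lowest log2 level), for the 10 members and for marker lists of cell types and proliferation (1 point per gene; bars are medians; the dotted line is the median of all tested probes, 0.63). The members lie between 0.25 and 1.13, while germ cell and pluripotency genes reach several log2 units.

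Of other genes of the pathway, 56 were listed and 54 were tested. Limma called 0 of the 54 (background 0.00891%, lowest adjusted p = 0.50) and 1 had an unadjusted p under 0.05 (background 7.51%). In the null pools 20 had a higher and 34 a lower mean, and their median difference was -0.041. Of the 12130 named genes tested, 5696 had a higher mean, and the median difference was -0.021. With scaling to spiked-in control RNA all 54 were lower, with a median of -0.59. Genotypes did not overlap for 4 that were higher (background 15.1%) and 11 that were lower (background 23.0%). None differed 2-fold with the 75th percentile (background 5.88%), and 3 did with the spiked-in scaling. The gene with the smallest unadjusted p was Prdm16, a PR domain factor reported to monomethylate H3K9. Prdm16 read -0.61 and -0.27 for wild type and -1.42 and -1.38 for null. The null arrays agreed closely and lay below wild type, with a difference of -0.96 and SE 0.22 (limma unadjusted p = 0.0096, adjusted p = 0.50). It stayed between -0.79 and -1.13 with any 1 array left out, the unadjusted p being 0.13 without wild-type replicate 2, and was -0.55 with normexp background correction and -1.51 with the spiked-in scaling. The 14 endothelial genes had lower means in the same pools, none of them called, and their part in the Prdm16 value was not tested. Prdm2, a further PR domain methyltransferase, differed by -0.54 (adjusted p = 0.80).

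Cofactors of the methyltransferases, 10 genes, had 5 higher and 5 lower means and a median difference of -0.0038. Wiz, a zinc finger partner of the Ehmt1 and Ehmt2 complex, read 2.47 and 2.27 for wild type and 2.55 and 2.57 for null (difference 0.19, limma adjusted p = 0.90). Cdyl2, a chromodomain protein, differed by -0.27 (adjusted p = 0.85). The 10 H3K9 demethylases tested had 4 higher and 6 lower means and a median difference of -0.019. Among them Jmjd1c, of the family that removes mono- and dimethylation, read -0.34 and -0.13 for wild type and -0.94 and -0.62 for null, below wild type on both arrays (difference -0.55, limma adjusted p = 0.70). Its relative Kdm3a went the other way, at 0.97 and 0.89 for wild type and 1.16 and 1.29 for null (difference 0.29, adjusted p = 0.82).

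The other HP1 proteins and partners, 16 genes, had 4 higher and 12 lower means, beside 5696 higher and 6434 lower of all named genes tested. The median difference of the 16 was -0.061, beside -0.021 over those named genes and -0.061 over all tested probes. By the brightest probe of each gene the genotypes overlapped for all 16, while they did not overlap for 38.2% of all probes. The paralogs Cbx1 and Cbx5 differed by -0.28 and -0.26 (limma adjusted p = 0.92 and 0.91), and the other 2 probes of Cbx5 by 0.40, with no overlap of the genotypes, and 0.16. Chaf1a, the large subunit of chromatin assembly factor 1, which binds HP1, differed by 0.24, and Champ1 by 0.20 (adjusted p = 0.91 and 0.90). The 8 genes of H3.3 deposition had 3 higher and 5 lower means and a median difference of -0.10. Ubn1 and Hira belong to the HIRA complex, which places H3.3 in active chromatin and is separate from Atrx and Daxx. Ubn1 read 2.17 and 2.23 for wild type and 1.87 and 1.75 for null, and Hira 0.47 and 0.60 against 0.33 and -0.030. Both null arrays were below wild type for each, and each differed by -0.39 (limma adjusted p = 0.75 for Ubn1 and 0.80 for Hira). Of the 7 lamina genes beside Lbr, 4 had higher and 3 lower means, the median difference being 0.088. Banf1, which links DNA to the nuclear envelope, differed by 0.47 and the lamin gene Lmnb2 by -0.23 (adjusted p = 0.75 and 0.87).

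**Figure D4:**
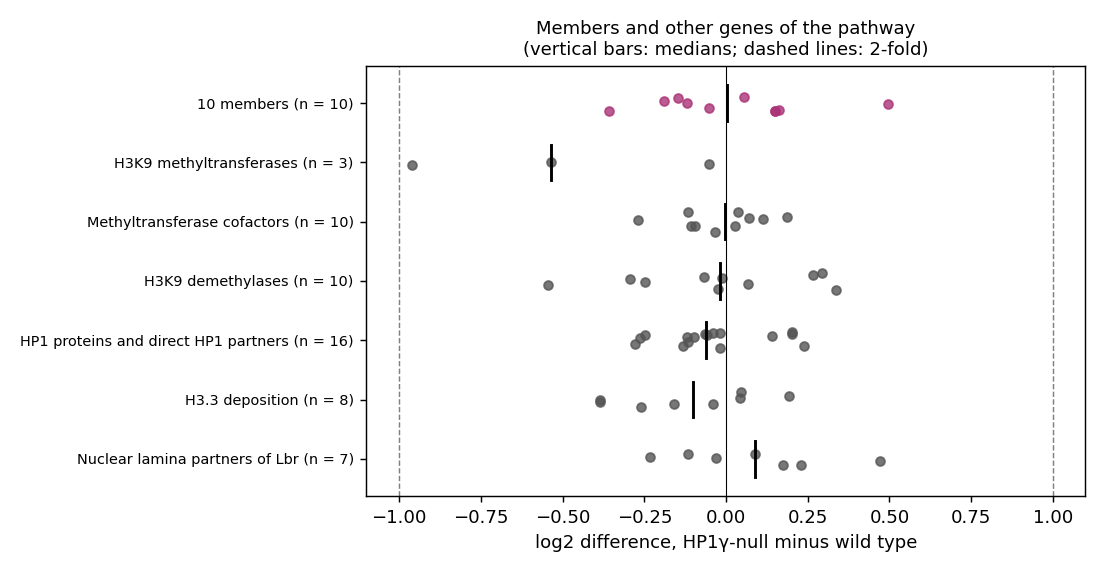
Difference between the genotypes (horizontal axis, HP1γ-null minus wild type, log2) for the 10 members and the other pathway genes by list, without Cbx3 (1 point per gene by its brightest probe; bars are medians; dashed lines mark 2-fold). With the 75th percentile scaling plotted here all points lie within 2-fold, Prdm16 at -0.96 being the lowest.

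The direction of the members depended on how arrays were scaled to each other. Scaled to the spiked-in control RNA, all 10 were lower in the null pools, between -0.90 and -0.052, and their median was -0.55. The median of all tested probes then was -0.61, since this scaling moves every probe by the same amount and leaves the order of the probes as it was. None passed the threshold in that form (lowest limma adjusted p = 0.30 by the brighter probes). Leaving out null replicate 2 gave 6 higher and 4 lower, and leaving out null replicate 1 gave 5 of each.

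**Figure D5:**
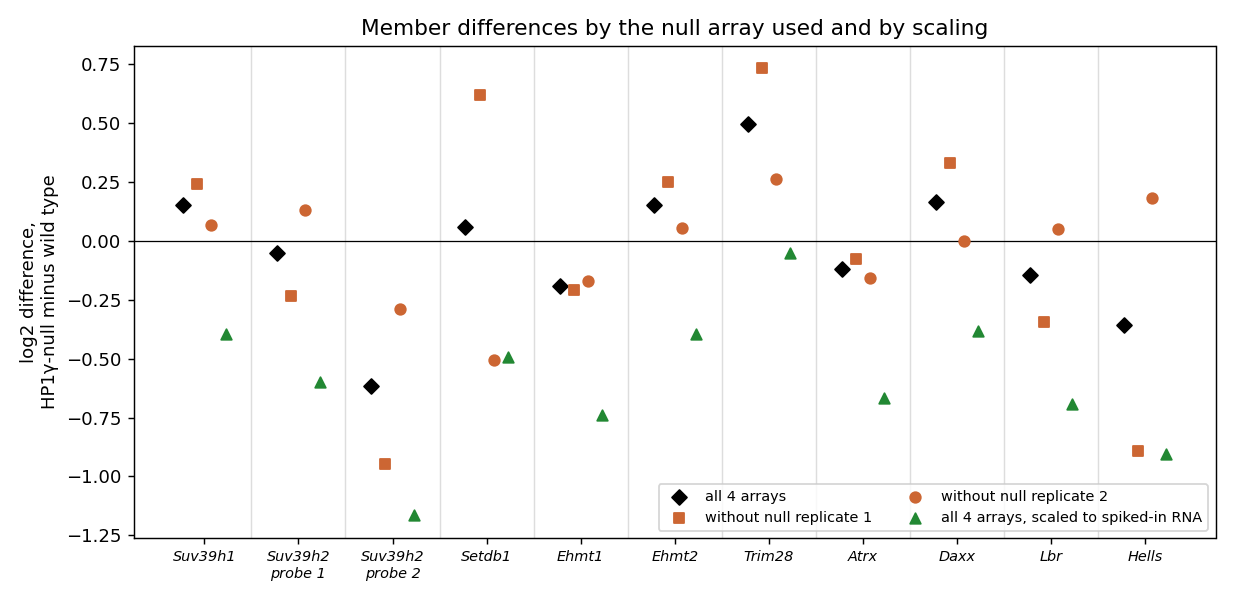
Difference between the genotypes for each tested member probe (vertical axis, HP1γ-null minus wild type, log2) with all 4 arrays, without either null array, and with scaling to spiked-in control RNA. The largest moves between the null arrays are those of Setdb1, from -0.51 to 0.62, and Hells, from 0.18 to -0.89, and the spiked-in scaling puts every probe below 0.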

How the data were processed

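Intensity values were deposited by the authors as Agilent Feature Extraction output (version 10.7.3.1, per the file headers), with 4 ng of RNA per pool amplified and labelled with Cy3, per the labels' protocols. The authors' deposited value table holds the same processed intensity rounded to 3 digits (within 0.50%). Computed here were log2 processed signals minus each array's 75th percentile over 43379 spots that are not controls. Spots marked as outliers (83 to 104 an array) were left out, and spots of a probe were averaged. Probes were named through RefSeq accessions (GRCm38.p6), which named 26888 of 41174. The files' array design uses another build, so no coordinates are given. A probe entered the test if some genotype had it well above background on each of its arrays, which left 22440 probes. The moderated linear model of limma 3.58.1 (R 4.3.3; eBayes, two-sided, no covariate) compared the genotypes, with p-values adjusted over all of these probes by Benjamini-Hochberg and a threshold of 0.05. All intervals are limma's, unadjusted. A gene is given by its brightest probe. The fit was also run on simulated data with the same spread in both genotypes. The spread of these arrays differed between genotypes, so that run does not measure their error rates. Figures and counts were made with Python 3.11.15, pandas 2.3.3 and matplotlib 3.10.9.

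All 4 arrays lay on 1 slide scanned on 1 day. The members and lists were chosen with earlier results of these data known. Named were every member probe, Cbx3, Cbx1 and Cbx5, of each pathway list the 2 genes with the smallest unadjusted p where none passed, and the 3 genes most like the member of widest spread. The cell type lists also held 8 mesonephric genes (6 tested, median difference 1.07) and erythroid genes (4 tested, median 0.0066). Of the mesonephric genes, Pax2 and Pax8 were well above background on no array. Lhx1 and Cdh6 passed the filter only through the wild-type arrays, as did the erythroid gene Hba-x, which limits the medians of those lists. Of the 5 higher mesonephric genes, Krt8 (3.96) and Krt18 (3.22) were higher on both null arrays than on both wild-type arrays. Epcam (1.77) was above both wild-type arrays in null replicate 1 only. It read -2.03 and -3.27 for wild type and 1.43 and -3.19 for null. Cdh6 was lower (-0.49). Limma called 0 of the 6 (background 0.00891%). Of 11 gonadal somatic genes 5 were tested, Wnt4 and Krt19 passing the filter only through the null arrays, so no median is given. Wt1, Amhr2 and Podxl, well above background on all 4 arrays, differed by 1.00, 2.14 and -0.58 (limma adjusted p = 0.84, 0.45 and 0.64). The genotypes overlapped for Wt1, with null replicate 1 between the wild-type arrays. The median difference of 11 leukocyte and 10 pluripotency genes was -0.12 and -0.084, and that of germ cell, stromal and proliferation genes -1.59, 0.70 and -0.034. The germ cell genes Dppa3, Ddx4, Dazl, Tfap2c and Mael passed the filter only through the wild-type arrays. So did the pluripotency genes Pou5f1, Sox2, Utf1, Dppa4 and Zfp42, which limits both medians. Alternatives were 3 further scalings, normexp (on median spot signals, the files holding no mean signal), the value table, 2 filters, another variance model, the replicate block, the mean over a gene's probes and leaving out each array.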

Additional observations from a re-analysis of the deposited data

How the results depend on the processing

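No member gene and no other pathway gene passed the threshold under any of the 14 alternatives (0 in each). Of 143 values of member probes under alternatives, 131 kept their sign and 12 did not, none of them past the threshold. With scaling to spiked-in control RNA the sign turned for Suv39h1 (-0.40), Setdb1 (-0.49), Ehmt2 (-0.40), Trim28 (-0.052) and Daxx (-0.38), and the members' median moved to -0.55. This follows from the shift of the median of all probes to -0.61. With 1 array left out, the sign turned for the brighter Suv39h2 probe (0.26 without wild-type replicate 1 and 0.13 without null replicate 2) and for Setdb1 (-0.18 and -0.51 in that order). Without null replicate 2 it also turned for Daxx (-0.0020), Lbr (0.048) and Hells (0.18). Over the 4 arrays left out in turn the ranges were -0.36 to 0.26 for this Suv39h2 probe, -0.51 to 0.62 for Setdb1, -0.0020 to 0.33 for Daxx, -0.34 to 0.048 for Lbr and -0.89 to 0.18 for Hells. Other alternatives kept the members' median between -0.038 and 0.079. Over all probes, 2 passed in the main setting, 146 with spiked-in scaling, 12 with an intensity trend and robust prior, 0 with no filter on dim probes, 1 with only probes well above background on all arrays, and 0 whichever array was left out. With the replicate block 13 passed and no member did. The replicate numbers mark independent pools, and same-numbered arrays deviated with a correlation of 0.068 over probes, so the numbers were not taken as pairs. The SE was widest for Setdb1 (0.45) and Hells (0.41).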
